A study of Oryza sativa Indica Group with 11 samples.

Results

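The line-by-salt interaction of rice asks, for each probe set, whether salt moved the level differently in IR29 than in FL478. It is the difference between salt and control in IR29 minus the same difference in FL478, on the log2 scale, so that a positive value means a more positive salt response in IR29. All 11 of the 11 arrays of the study enter it: 3 of salt-stressed IR29, 2 of control IR29, 3 of salt-stressed FL478 and 3 of control FL478. IR29, an indica cultivar, is sensitive to salt. FL478 tolerates it: this recombinant inbred line descends from IR29 and the tolerant landrace Pokkali, so it carries IR29 alleles over part of its genome. Each array of the Affymetrix rice design was hybridised with biotin-labelled target from 1 sample, made from approximately 8 µg of total RNA. The tissue was the crown with the growing point, pooled from approximately 12 plants a sample. Salt concentration, length of exposure and plant age were not in the labels read here. Arrays of 1 group are labelled as biological replicates with no word on separate cultures, so the p-values measure the spread between these samples.

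The crown of a rice seedling holds the shoot meristem, the bases of young leaves and the vascular tissue through which sodium passes on its way to the shoot. Sodium that is not withdrawn from the xylem accumulates in leaves, and plants meet it with ion transporters, abscisic acid (ABA) signalling, protective proteins and changes in cell walls and growth. A gene can carry an interaction in several ways: it can respond in 1 line, respond in opposite directions, or start from different control levels and end at the same level under salt. These forms look alike in a single interaction value, so the leading genes below are described by their level in all 4 groups. Others are given more briefly, and an interaction alone does not show the form.

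Of 61 shoot meristem genes, which mark the growing point, 49 were bright (at least 1 group mean of 7 or more). OSH1, a homeobox gene of the shoot meristem, averaged 11.89 in salt-stressed IR29, 12.03 in control IR29, 12.22 in salt-stressed FL478 and 12.35 in control FL478 (normalized log2 intensity). Leaf tissue was present too, with the chlorophyll-binding protein gene CAB2R at group means between 14.67 and 15.03. Of 15 photosynthesis genes 13 were bright, though RBCS1, a Rubisco small subunit gene, lay between 4.7 and 5.5. Root-preferred genes were measured as well, with 8 of 13 bright. NAS1, of nicotianamine synthesis, had group means between 6.39 and 8.33, while IRT1, an iron transporter of roots, lay between 4.54 and 5.95. The first principal component, with 23.5% of the variance, separated the lines, at 67.44 to 74.95 for salt-stressed IR29, 31.48 and 55.24 for control IR29, -62.05 to -22.26 for salt-stressed FL478 and -62.57 to -44.14 for control FL478. The trimmed mean intensity was 500.1 on each array. Precision is limited by how few arrays each group holds. As a sign of RNA quality, cyclophilin control probe sets at the 3' end exceeded those at the 5' end on the log2 scale by values that ran between 1.0 and 1.16 in salt-stressed IR29, 0.71 and 0.91 in control IR29, 0.69 and 1.24 in salt-stressed FL478, and 0.41 and 0.88 in control FL478, so that the excess was higher under salt in IR29 and overlapped in FL478. The actin probe sets did the same, at 0.66 to 0.79 in salt-stressed IR29 and 0.48 to 0.5 in control IR29, and those of Gapdh overlapped in IR29, at 0.33 to 0.56 and 0.28 to 0.56. The part of RNA quality in the results was not tested.

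The array labelled IR29 control replicate 1 stood apart from the other IR29 arrays, by a comparison chosen after values of this array had been seen. Over the 218 probe sets called lower in IR29 than in FL478 under salt by at least 2 on the log2 scale, it lay nearer to the salt-stressed FL478 mean than to the salt-stressed IR29 mean for 77 (35.3%). IR29 control replicate 2 did so for 4 (1.83%), and the 3 FL478 control arrays for between 216 and 218. Over the 215 probe sets higher in IR29 by at least 2, the shares were 21.9% for IR29 control replicate 1 and 20.5% for replicate 2. Its median intensity, 73.1, was the highest of the 11 arrays. Since a salt response in IR29 rests on only 2 control arrays, values without this array are given beside many of the results it moves. The other IR29 control is then alone and is assumed to vary like the arrays of the other groups.

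No probe set passed the interaction test. With limma and Benjamini-Hochberg adjustment over the 57258 probe sets tested, 0 (0.0%) had an adjusted p under 0.05, and the smallest adjusted p was 0.219. At an unadjusted limma p under 0.01 there were 656 probe sets (1.15%), 349 with a positive interaction (0.61%) and 307 with a negative one (0.536%). At an unadjusted p under 0.05 there were 3059 (5.34%), of which 1543 (2.69%) were positive and 1516 (2.65%) negative. These shares are near the nominal 1% and 5% of the 2 thresholds. Dim probe sets made up 61.4% of those at p under 0.01 and 56.8% of all. Among the 24732 bright probe sets, which have at least 1 group mean of 7 or more, 253 (1.02%) had p under 0.01. The median standard error of the interaction over the bright probe sets was 0.298, and the smallest interaction that reached p under 0.01 was 0.472. Genes are therefore described below by values, errors and 95% intervals, without a call for the interaction. The intervals take no account of the choice of genes by small p. Neither do the adjusted p-values of line differences and salt responses, which are parts of the same contrast and lend it no separate support.

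The bright probe sets at p under 0.01 were uneven in direction, with 178 positive and 75 negative interactions, a split noticed after the values were seen. Without IR29 control replicate 1 the counts were 223 and 44, and without IR29 control replicate 2 they were 308 and 263. Positive values were thus the more numerous in all 3 sets of arrays, and the size of the imbalance depended on which IR29 control was used. With 1 probe set for each of 17905 genes, 880 (4.91%) had p under 0.05, of which 546 (3.05%) were positive and 334 (1.87%) negative.

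**Figure D1:**
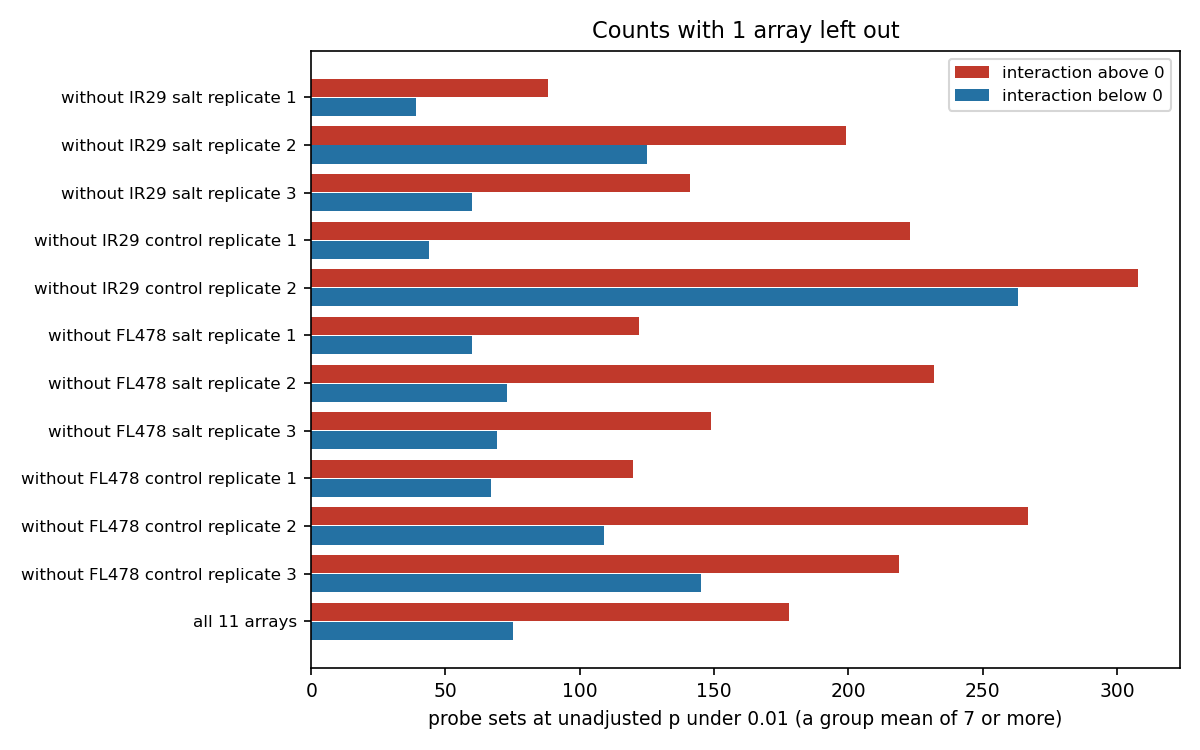
Number of bright probe sets (a group mean of 7 or more) at an unadjusted interaction p under 0.01 with each array left out in turn and with all 11 arrays; bars start at 0, red for an interaction above 0 and blue for one below 0. Positive outnumber negative interactions in each fit, from 88 against 39 without IR29 salt replicate 1 to 308 against 263 without IR29 control replicate 2.

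The form of the interaction was sorted by the fitted salt responses, with 0.5 on the log2 scale as the size that counts as a response. Of the 253 bright probe sets, 124 (49.0%) had a fitted response in IR29 alone, 75 (29.6%) in opposite directions, 20 (7.91%) in FL478 alone, 3 in the same direction and 31 in neither line by that size. Over all bright probe sets the shares were 11.1% for IR29 alone, 1.07% for opposite directions and 4.71% for FL478 alone. Selection on a large interaction raises the first 3 classes by construction, so nothing is read from these shares. Over all 656 probe sets at p under 0.01, dim ones included, the order was the reverse, with 330 (50.3%) in opposite directions and 239 (36.4%) in IR29 alone. Of the 124 probe sets with a response in IR29 alone, 99 had a positive interaction.

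Opposite responses were also counted without a fitted size. All salt arrays lay on one side of all control arrays in both lines, in opposite directions, for 542 probe sets (0.947%), with 245 higher in IR29 and lower in FL478 (0.428%) and 297 the reverse (0.519%). In the same direction in both lines there were 937 (1.64%). Among bright probe sets 199 (0.805%) separated in opposite directions and 616 (2.49%) in the same direction. With so few arrays in each group, complete separation in opposite directions arises by chance at about the share seen over all probe sets. The bright share was no higher. The opposite counts are thus not read as opposite responses, and for the genes below such separation only describes where their arrays lay. The salt responses of the lines had the same sign for 56.6% of bright probe sets, with a Pearson correlation of 0.175 across 24732 probe sets, which are not independent replicates.

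**Figure D2:**
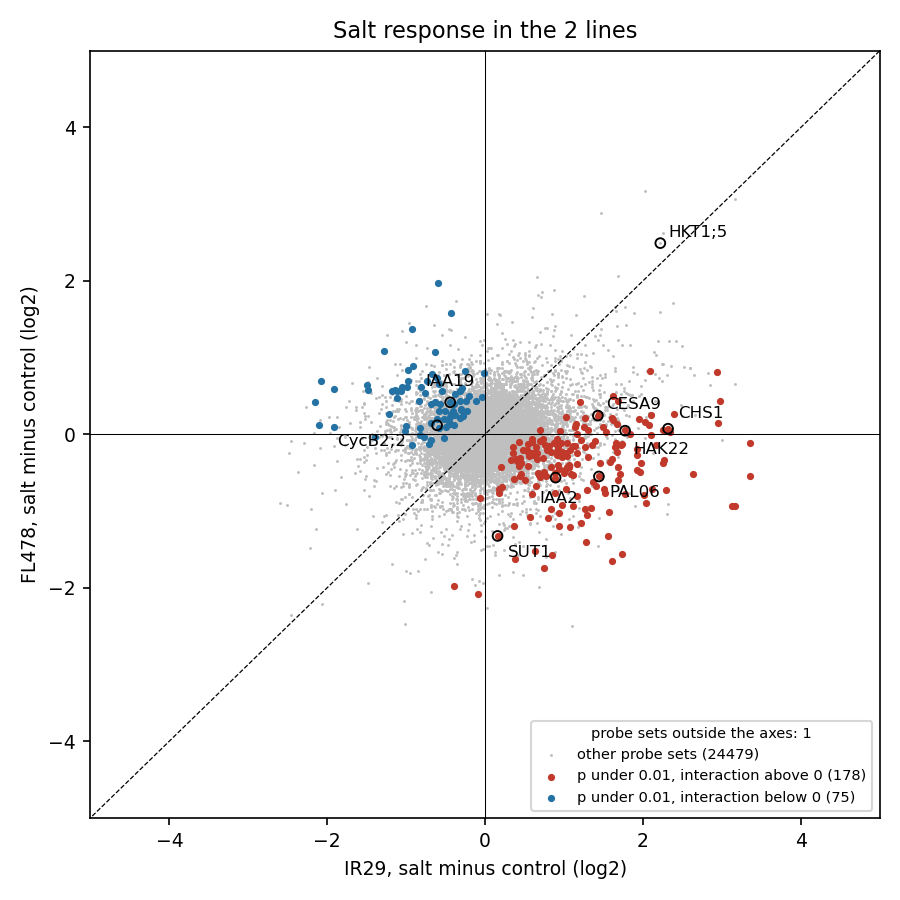
Salt response in IR29 (horizontal, salt minus control, log2) against that in FL478 (vertical) for 24732 bright probe sets; red and blue points have an unadjusted interaction p under 0.01, grey points do not, circles mark named genes and the dashed line marks equal responses. HKT1;5 lies near the line at 2.22 and 2.49, while CHS1 and HAK22 lie to the right near 0 in FL478, and SUT1 lies below 0 in FL478.

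Whether the control level or the salt level carried the difference was read from the line difference, IR29 minus FL478, in each condition. A probe set was counted as salt-led where the difference under salt was at least 2 times that in control, control-led for the reverse, and crossing where neither held and the signs were opposite. Of the 253 bright probe sets at p under 0.01, 115 (45.5%) were salt-led, 44 (17.4%) control-led and 90 (35.6%) crossing. Over all bright probe sets 26.5% were salt-led, 27.3% control-led and 14.1% crossing. Selection on a large interaction raises the crossing share by construction. It also lowers the share where neither held and the signs were the same, 1.58% here and 32.0% over all bright probe sets. That leaves more of the total to the other classes, so nothing is read from the salt-led share of 45.5% against 26.5%. Of the 115 salt-led probe sets, 90 had a positive and 25 a negative interaction. Without IR29 control replicate 2 the balance turned round, to 146 salt-led and 249 control-led, and without IR29 control replicate 1 it was 77 and 79. Without FL478 control replicate 3 there were 103 and 122, and without FL478 salt replicate 2, which lay apart on the fourth principal component, 200 and 17. The excess of salt-led over control-led probe sets therefore did not hold when either IR29 control or FL478 control replicate 3 was left out, and held when each of the other 8 arrays was. Over all 656 probe sets at p under 0.01, dim ones included, 171 (26.1%) were salt-led and 167 (25.5%) control-led. The excess was thus limited to the bright ones.

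The line comparisons themselves were called far more often than the interaction. IR29 and FL478 differed under salt for 992 probe sets (1.73%) and in control for 466 (0.814%), with limma at an adjusted p under 0.05. In both conditions 384 were called, all with the same sign, which is 38.7% of the salt calls and 82.4% of the control calls. Of the 608 called under salt alone, 192 had an unadjusted interaction p under 0.05 and 0 were called for the interaction, so a difference between the conditions was not shown for any of them. The salt response was called for 3 probe sets in IR29 (0.00524%) and 5 in FL478 (0.00873%). The salt comparison rests on 6 arrays and the control comparison on 5, with median standard errors of 0.199 and 0.222 for bright probe sets.

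**Figure D3:**
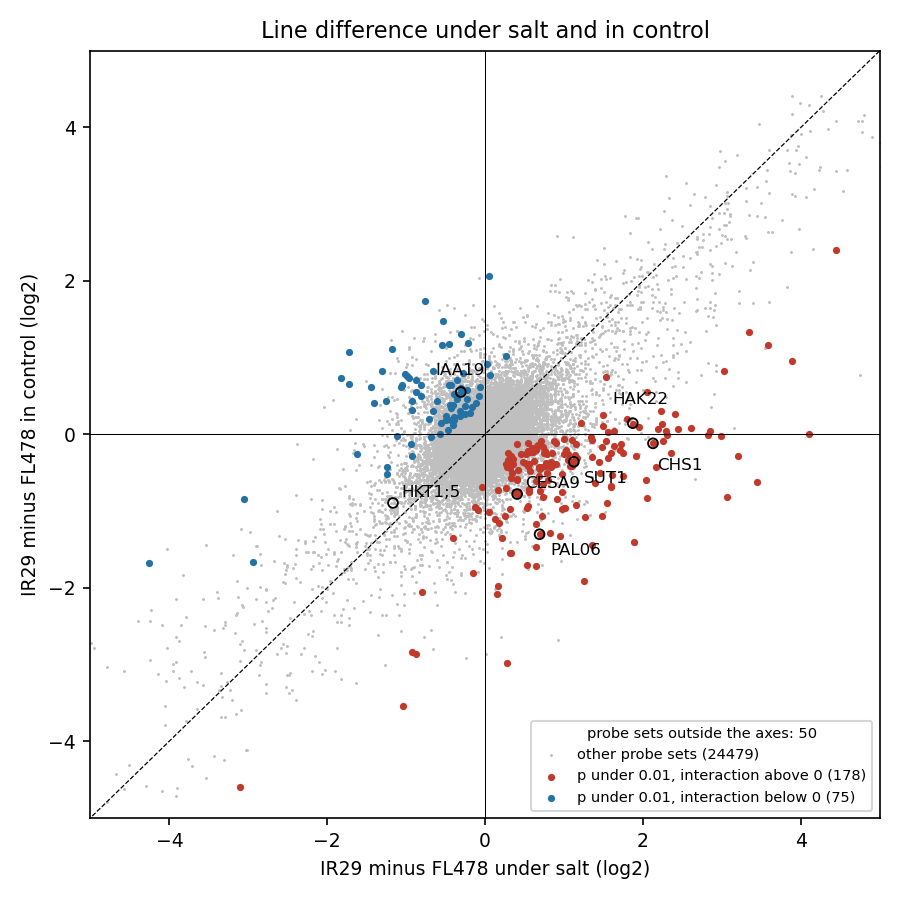
Line difference under salt (horizontal, IR29 minus FL478, log2) against that in control (vertical) for 24732 bright probe sets; colours are as in the plot of salt responses and the dashed line marks equal differences, with 50 probe sets outside the axes. CHS1 lies at 2.13 under salt and -0.12 in control, PAL06 at 0.69 and -1.30, and IAA19 at -0.31 and 0.55.

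Both genes of the flavonoid list and 21 of 27 phenylpropanoid and lignin genes had a positive interaction, and none of these passed the test. The flavonoid list holds only CHS1 and CHI, so its count and median describe these 2 genes and not the pathway. CHS1 encodes chalcone synthase, which makes the first dedicated intermediate of flavonoids. Its level was 11.90, 11.84 and 10.82 on the salt-stressed IR29 arrays, 9.53 and 8.87 in control IR29, 9.28, 9.74 and 9.17 in salt-stressed FL478, and 9.45, 9.01 and 9.50 in control FL478. The salt-stressed IR29 arrays lay above the other 8, which overlapped. The interaction was 2.24 ± 0.43 (SE, as after ± throughout; 95% interval 1.31 to 3.18), with an unadjusted limma p of 0.000216 and an adjusted p of 0.618. The fitted line difference was larger under salt, where IR29 exceeded FL478 by 2.13 (limma adjusted p 0.0018), than in control, at -0.12 ± 0.32. Without IR29 control replicate 1 the interaction was 2.57. Another 4, dimmer CHS1 probe sets gave between 0.33 and 1.41, with 1.41 ± 0.35 in the brightest of them.

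CHI, chalcone isomerase, which acts on the product of chalcone synthase, followed with a smaller value. It stood at 11.98, 11.62 and 11.34 in salt-stressed IR29, 10.28 and 10.59 in control IR29, 10.18, 11.11 and 10.04 in salt-stressed FL478, and 10.08, 10.52 and 9.84 in control FL478. The IR29 salt arrays were again above all others, with FL478 salt replicate 2 the nearest. The interaction of 0.91 ± 0.41 (95% interval 0.03 to 1.80) was 0.76 without IR29 control replicate 1. Under salt CHI was higher in IR29 by 1.2 (limma adjusted p 0.0483), and in control the line difference was 0.29.

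**Figure D4:**
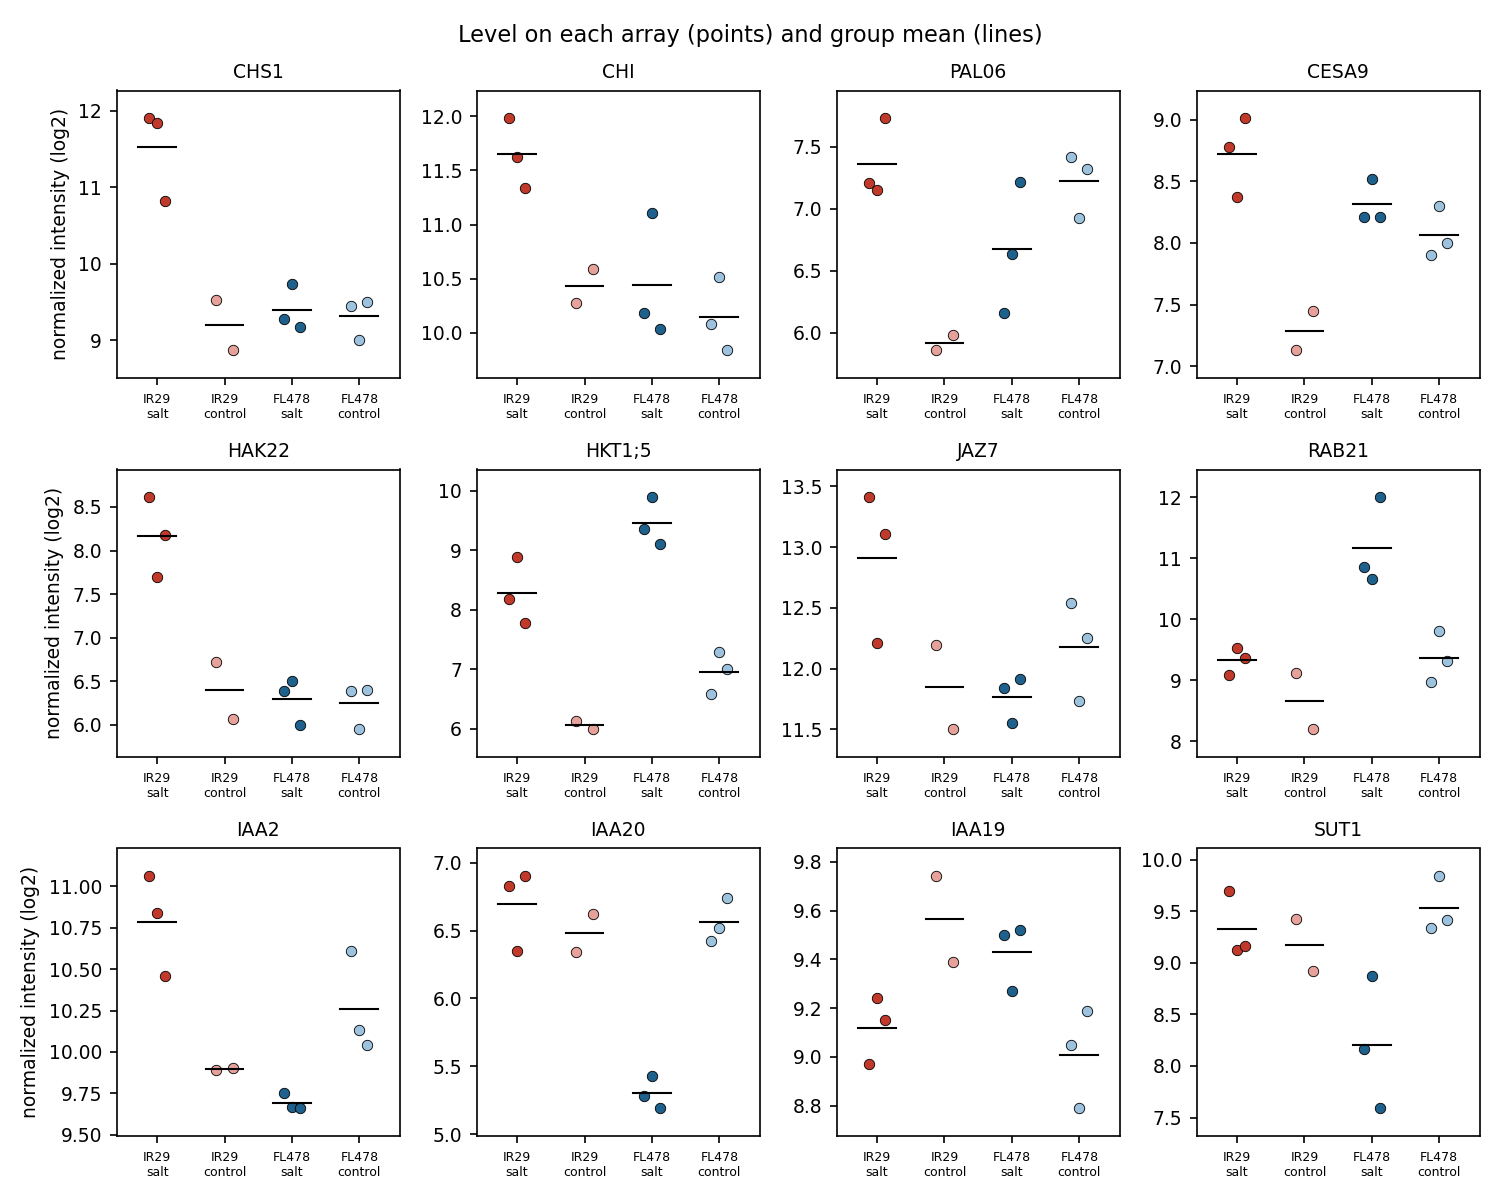
Normalized log2 intensity of 12 genes on each of the 11 arrays (points) with the group mean (line), in the order salt-stressed IR29, control IR29, salt-stressed FL478 and control FL478; vertical axes differ between genes and do not start at 0. The salt-stressed IR29 arrays lie above all others for CHS1, CHI and HAK22, the salt-stressed FL478 arrays lie below all others for IAA20, and HKT1;5 is higher under salt in both lines.

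PAL06, a phenylalanine ammonia-lyase at the entry of the phenylpropanoid pathway, differed in form. Its level was 7.21, 7.15 and 7.73 in salt-stressed IR29, 5.86 and 5.98 in control IR29, 6.16, 6.64 and 7.22 in salt-stressed FL478, and 7.42, 6.93 and 7.32 in control FL478. The low group was control IR29, and the salt-stressed IR29 arrays lay in the range of the FL478 arrays or just above it. The interaction was 1.99 ± 0.50 (95% interval 0.91 to 3.08), made of a line difference of 0.69 under salt and -1.30 in control. CAD2, a cinnamyl alcohol dehydrogenase of lignin synthesis, had 0.73 ± 0.27, but only 0.38 without IR29 control replicate 2. LAC4 had 1.38 ± 0.53, and LAC24, of the same laccase family of copper oxidases, had -1.33 ± 0.58, but -0.75 without IR29 control replicate 1. Of the 27 phenylpropanoid and lignin genes, 4 reached p under 0.05 upward and 1 downward. The median was 0.54, and 0.27 without IR29 control replicate 2, against 8904 of 17905 genes positive and a median of -0.002 over all genes. Of all genes, 3.05% reached p under 0.05 upward and 1.87% downward, the shares that stand beside the list counts here and below.

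For cellulose synthases of the secondary wall, as for PAL06, control IR29 was the lowest group. CESA9 stood at 8.78, 8.37 and 9.01 in salt-stressed IR29, 7.13 and 7.45 in control IR29, 8.21, 8.52 and 8.21 in salt-stressed FL478, and 7.90, 8.30 and 8.00 in control FL478. Control IR29 lay below all other arrays, and salt-stressed IR29 overlapped salt-stressed FL478. The interaction was 1.19 ± 0.32 (95% interval 0.48 to 1.89), with a line difference of 0.41 under salt and -0.78 in control. CESA4, a partner subunit, stood at 11.78, 11.20 and 11.60 in salt-stressed IR29, 10.46 and 10.20 in control IR29, 10.76, 11.15 and 11.13 in salt-stressed FL478, and 10.66, 10.56 and 10.55 in control FL478. Its salt arrays lay above its control arrays in both lines, by 1.2 ± 0.18 in IR29 and 0.42 ± 0.16 in FL478, and the interaction was 0.78 ± 0.24. IRX9L and IRX14, of families of xylan synthesis genes, had 0.41 ± 0.17 and 0.46 ± 0.21, and IRX14 had 0.26 without IR29 control replicate 2. Of 12 genes of the secondary wall and xylem, 10 were positive and 4 reached p under 0.05, with a median of 0.40.

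The same 12 genes also serve as markers of vascular tissue. Their mean level ran between 9.83 and 10.07 on the salt-stressed IR29 arrays, 9.43 and 9.60 in control IR29, 9.75 and 9.86 in salt-stressed FL478, and 9.75 and 9.80 in control FL478. Both control IR29 arrays were below all others. In bulk tissue a smaller share of a cell type and less RNA in each cell cannot be told apart, and the part of the vascular share in the wall genes' values was not tested. The mean of the shoot meristem list was also lowest on the control IR29 arrays, by a smaller margin, at 8.94 to 9.03 in salt-stressed IR29, 8.91 in both control IR29 arrays, 8.93 to 9.05 in salt-stressed FL478 and 8.98 to 9.06 in control FL478.

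HAK22 and HAK1, of the KUP/HAK/KT family of potassium transporters, had positive interactions at their brightest probe sets. HAK22 was at 8.61, 7.70 and 8.18 in salt-stressed IR29, 6.72 and 6.07 in control IR29, 6.39, 6.50 and 6.0 in salt-stressed FL478, and 6.39, 5.95 and 6.40 in control FL478. The salt-stressed IR29 arrays stood clear of the other 8, which overlapped. The interaction was 1.73 ± 0.50 (95% interval 0.63 to 2.82) and salt-led, with IR29 higher by 1.87 under salt (limma adjusted p 0.0126) and a difference of 0.15 in control. A dimmer HAK22 probe set, at a mean of 5.11 not far above the floor of 4 that the pseudocount sets, had -1.32 ± 0.59, so the probe sets disagreed in sign.

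HAK1, a high-affinity potassium uptake transporter of rice roots, had fitted responses in opposite directions. It was at 6.95, 6.70 and 7.63 in salt-stressed IR29, 6.56 and 6.28 in control IR29, 5.43, 5.98 and 6.10 in salt-stressed FL478, and 7.35, 6.24 and 6.91 in control FL478. Salt arrays lay above control arrays in IR29 and below them in FL478, by 0.67 ± 0.43 and -1.0 ± 0.39, and the interaction was 1.67 ± 0.58. Its dimmer probe set had 2.57 ± 0.64, of the same sign. Of 27 sodium and potassium transport genes, 19 were positive, 2 reached p under 0.05 upward and 0 downward, and the median was 0.19.

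HKT1;5, which withdraws sodium from the xylem and underlies a major salt tolerance locus of rice, is given for contrast. It was at 8.18, 8.89 and 7.77 in salt-stressed IR29, 6.13 and 5.99 in control IR29, 9.36, 9.89 and 9.10 in salt-stressed FL478, and 6.58, 7.29 and 7.0 in control FL478. The salt response was 2.22 ± 0.35 in IR29 (limma adjusted p 0.104) and 2.49 ± 0.31 in FL478 (adjusted p 0.0475), so it passed the test in FL478 alone, while the interaction was -0.27 ± 0.47 with an interval of -1.30 to 0.75 and values between -0.58 and -0.02 as each array was left out. A difference between the responses of up to 1.30 in favour of FL478 was thus within the error. The line difference was -1.17 under salt and -0.90 in control, of the same sign in both.

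Jasmonate genes lay mostly on the positive side. JAZ proteins repress jasmonate responses and are themselves transcribed when the hormone acts. JAZ7 stood at 13.41, 12.21 and 13.11 in salt-stressed IR29, 12.19 and 11.50 in control IR29, 11.84, 11.55 and 11.91 in salt-stressed FL478, and 12.54, 11.73 and 12.25 in control FL478. Salt arrays were above control arrays in IR29 by a narrow margin between the nearest arrays, and the groups overlapped in FL478. The interaction was 1.47 ± 0.44, with 1.81 without IR29 control replicate 1 and 1.12 without replicate 2. JAZ8 was at 11.03, 9.13 and 11.09 in salt-stressed IR29, 9.30 and 8.39 in control IR29, 8.68, 7.67 and 8.44 in salt-stressed FL478, and 10.09, 8.45 and 9.28 in control FL478. Its salt and control arrays overlapped in both lines, and its interaction of 2.58 ± 0.79 had the wide interval of 0.85 to 4.31.

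JAZ3, JAZ11 and JAZ12 had interactions of 0.62 ± 0.23, 1.57 ± 0.60 and 3.26 ± 1.02. JAZ12 was control-led, with a line difference of 0.276 under salt and -2.985 in control. JAZ3 was control-led too, at 0.07 and -0.547, while JAZ11 was crossing, at 0.766 and -0.806. AOC3, the allene oxide cyclase of jasmonate synthesis, had 1.44 ± 0.51, while OPR4, of the oxophytodienoate reductase family, had -1.36 ± 0.53, but -0.80 without IR29 control replicate 1. JAZ11 had 0.99 without FL478 control replicate 1. Of 38 jasmonate genes, 27 were positive, 6 reached p under 0.05 upward and 1 downward, with a median of 0.32 that ran between 0.27 and 0.46 as each array was left out. The median salt response of the list was 0.21 in IR29 and -0.20 in FL478.

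Stress transcription factors and ABA genes did not share 1 direction. Of 41 stress transcription factors, 26 were positive and 6 reached p under 0.05, all upward. The median was 0.12, and -0.03 without IR29 control replicate 2. BZIP23, a regulator of ABA responses, was at 11.04, 10.80 and 10.90 in salt-stressed IR29, 9.63 and 9.49 in control IR29, 10.38, 10.50 and 10.76 in salt-stressed FL478, and 9.78, 9.62 and 10.17 in control FL478. Its salt arrays lay above its control arrays in both lines, by 1.35 ± 0.17 and 0.69 ± 0.16, with an interaction of 0.66 ± 0.23. PP2C30, a protein phosphatase of the 2C class, had the same form, with 2.05 ± 0.34 in IR29 and 0.83 ± 0.30 in FL478.

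DREB1E, of the family of dehydration-responsive element binding factors, was control-led. It was at 5.78, 6.14 and 6.06 in salt-stressed IR29, 4.65 and 5.49 in control IR29, 7.10, 6.53 and 6.20 in salt-stressed FL478, and 7.21, 7.80 and 6.85 in control FL478. The line difference was -0.61 under salt (limma adjusted p 0.624) and -2.22 in control (adjusted p 0.0392). The interaction was 1.61 ± 0.59, and 1.19 without IR29 control replicate 1.

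Of 13 ABA, dehydrin and late embryogenesis abundant (LEA) genes, 6 were positive and 1 reached p under 0.05, downward, with a median of -0.23 that was 0.04 without IR29 control replicate 1. That gene was RAB21, an ABA-responsive dehydrin gene whose protein is thought to protect cells during dehydration. It was at 9.09, 9.53 and 9.37 in salt-stressed IR29, 9.12 and 8.20 in control IR29, 10.86, 10.66 and 12.00 in salt-stressed FL478, and 8.97, 9.81 and 9.32 in control FL478. The salt-stressed FL478 arrays lay above all others, and the IR29 groups overlapped by 1 array. The interaction was -1.14 ± 0.52 (95% interval -2.27 to -0.02), but -0.67 without IR29 control replicate 1. The line difference was -1.85 under salt (limma adjusted p 0.016), against -0.70 in control. A dimmer RAB21 probe set gave -0.93 ± 0.40. RAB16B, a related dehydrin gene, had higher salt than control arrays in both lines and an interaction of -0.39 ± 0.68, within its error.

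Aux/IAA genes have short-lived proteins that repress auxin responses. Fitted responses were in opposite directions for IAA2 and in FL478 alone for IAA20, without a call for either. IAA2 had the smallest p among the bright genes named by the rule. IAA2 was at 11.06, 10.84 and 10.46 in salt-stressed IR29, 9.89 and 9.90 in control IR29, 9.75, 9.67 and 9.66 in salt-stressed FL478, and 10.61, 10.13 and 10.04 in control FL478. Salt arrays lay above control arrays in IR29 and below them in FL478, by 0.89 ± 0.19 and -0.57 ± 0.17. Neither response passed the test (limma adjusted p 0.214 and 0.875). The interaction was 1.46 ± 0.26 (95% interval 0.89 to 2.03), with an unadjusted limma p of 0.000119 and an adjusted p of 0.618. It ran between 1.28 and 1.62 as each array was left out. Under salt IAA2 was higher in IR29 by 1.10 (limma adjusted p 0.00562), and in control the difference was -0.36 ± 0.19.

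IAA20 was lower under salt in FL478. It was at 6.83, 6.35 and 6.90 in salt-stressed IR29, 6.34 and 6.62 in control IR29, 5.28, 5.43 and 5.19 in salt-stressed FL478, and 6.42, 6.52 and 6.74 in control FL478. The salt-stressed FL478 arrays lay below all others, and the IR29 groups overlapped. The interaction was 1.47 ± 0.47 (95% interval 0.44 to 2.50), and under salt the line difference was 1.39 (limma adjusted p 0.0494). The FL478 response itself, -1.26 ± 0.32, did not pass the test (adjusted p 0.706). Another 2 IAA20 probe sets had 1.47 ± 0.59 and 0.55 ± 0.66.

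IAA19 had the reverse sign. It was at 8.97, 9.24 and 9.15 in salt-stressed IR29, 9.74 and 9.39 in control IR29, 9.50, 9.27 and 9.52 in salt-stressed FL478, and 9.05, 8.79 and 9.19 in control FL478. Salt arrays lay below control arrays in IR29 and above them in FL478, and the interaction was -0.86 ± 0.24 (95% interval -1.38 to -0.34). The line difference changed sign, -0.31 under salt and 0.55 in control. PID, a protein kinase that directs auxin transport, also separated in opposite directions, with -0.71 ± 0.22. It was control-led, with a line difference of 0.06 under salt and 0.77 in control (limma adjusted p 0.943 and 0.0594). GH3.9, of a family of enzymes that conjugate hormones to amino acids, had -0.75 ± 0.27, but -0.51 without IR29 control replicate 1 and -0.97 without replicate 2. Of 59 auxin genes, 33 were positive, 4 reached p under 0.05 upward and 2 downward, and the median of 0.08 was 0.04 without IR29 control replicate 1, close to that of all genes.

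SUT1, a sucrose transporter that moves sugar into cells and phloem, had a fitted response in FL478 alone. It was at 9.70, 9.13 and 9.16 in salt-stressed IR29, 9.43 and 8.92 in control IR29, 8.16, 8.87 and 7.59 in salt-stressed FL478, and 9.34, 9.84 and 9.42 in control FL478. The salt-stressed FL478 arrays lay below all others, with FL478 salt replicate 2 the nearest to them. The response was 0.16 ± 0.33 in IR29 and -1.33 ± 0.30 in FL478, where it did not pass the test (limma adjusted p 0.525). The interaction was 1.48 ± 0.44 (95% interval 0.52 to 2.45; limma adjusted p 0.857). The sucrose and starch list as a whole was centred on 0, with 23 of 47 genes positive and 1 at p under 0.05 in each direction.

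HCT2, a hydroxycinnamoyl transferase, and YAB5, of the YABBY family of leaf and flower regulators, met the same form with interactions of 0.97 ± 0.41 and 0.73 ± 0.31. Both rested on the choice of control. HCT2 had 1.41 without IR29 control replicate 1 and 0.52 without replicate 2, and YAB5 had 1.07 and 0.39.

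Cytokinin and gibberellin genes included RR4, a response regulator of cytokinin signalling, which separated in opposite directions. It was at 9.74, 9.03 and 9.70 in salt-stressed IR29, 8.96 and 9.0 in control IR29, 9.05, 9.0 and 9.01 in salt-stressed FL478, and 9.18, 9.87 and 9.35 in control FL478. Control IR29 and salt-stressed FL478 lay close together, and the interaction was 0.95 ± 0.32. The gibberellin receptor gene gid1 had 0.66 ± 0.22. In the list 26 of 41 genes were positive and 2 reached p under 0.05, both upward.

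Genes of cell division lay mostly on the negative side. Of 94 cell cycle and kinesin genes, 27 were positive, 5 reached p under 0.05, all downward, and the median was -0.16. The median was -0.22 without IR29 control replicate 1 and -0.06 without replicate 2. Of all 17905 genes, 8904 were positive, 880 (4.91%) reached p under 0.05 and 334 (1.87%) did so downward. CycB2;2, a mitotic cyclin, was at 11.71, 12.26 and 11.72 in salt-stressed IR29, 12.53 and 12.48 in control IR29, 12.31, 12.28 and 12.30 in salt-stressed FL478, and 12.34, 11.78 and 12.42 in control FL478. The salt arrays lay below the control arrays in IR29 and within their range in FL478, by -0.61 ± 0.20 and 0.12 ± 0.18, with an interaction of -0.73 ± 0.27. A dimmer probe set had -0.46 ± 0.20. CycB2;1 had -0.48 ± 0.21, and -0.31 without IR29 control replicate 2, and CycD5;3, a cyclin of the D class, -0.63 ± 0.25. The kinesin motor genes KIN14Q and KIN12C had -0.50 ± 0.20 and -0.43 ± 0.18. The mean level of the list ran between 10.24 and 10.38 in salt-stressed IR29, 10.36 and 10.54 in control IR29, 10.33 and 10.41 in salt-stressed FL478, and 10.37 and 10.50 in control FL478, so the groups overlapped, and the share of dividing cells was not tested.

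Other genes with the smallest p on the negative side had interactions between -1.53 and -0.38. AIP1 had -0.80 ± 0.26 and was salt-led, with a line difference of -0.94 under salt (limma adjusted p 0.0157) and -0.13 in control. Its interaction was -0.43 without IR29 control replicate 1 and -1.18 without replicate 2, and its 2 dimmer probe sets had -0.18 and -0.21. RMR2 had -0.71 ± 0.25, with line differences of -1.32 under salt (adjusted p 0.00107) and -0.62 in control. Dimmer RMR2 probe sets had -0.33 ± 0.23, -0.31 ± 0.30 and -0.90 ± 0.42. BAT1 had -1.02 ± 0.34, while 2 of its 3 dimmer probe sets were positive, at 0.80 and 0.70. PAE1, a subunit of the proteasome, had -0.39 ± 0.14, PP2C67, a protein phosphatase, -0.60 ± 0.23, and CBL6, a calcium sensor, -0.38 ± 0.15. CYP76M6, a cytochrome P450 of diterpenoid synthesis, was control-led, with a line difference of -0.14 under salt and 1.40 in control, and an interaction of -1.53 ± 0.56.

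Other positive interactions included BGLU27, NEK6 and CASPL1U3. BGLU27, a beta-glucosidase, was at 10.17, 10.07 and 9.76 in salt-stressed IR29, 8.19 and 8.52 in control IR29, 8.29, 9.35 and 8.03 in salt-stressed FL478, and 8.62, 9.09 and 8.44 in control FL478. The salt-stressed IR29 arrays lay above all others, with FL478 salt replicate 2 next. The interaction was 1.81 ± 0.45, and IR29 exceeded FL478 by 1.44 under salt (limma adjusted p 0.0313). NEK6, a protein kinase, had 1.05 ± 0.28, and CASPL1U3, of the family of Casparian strip membrane protein-like genes, had 1.96 ± 0.58.

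The gene rca encodes Rubisco activase, which keeps the carbon-fixing enzyme active in leaves. Its interaction of 1.48 ± 0.40 was 1.92 without IR29 control replicate 1 and 1.04 without replicate 2, and 3 dimmer probe sets had between 1.07 and 1.10. The photosynthesis list, with 10 of 15 genes positive and 1 at p under 0.05, had a median of 0.20 that was 0.33 without IR29 control replicate 1 and -0.21 without replicate 2, and its mean level overlapped between all groups. GRXC15, a glutaredoxin, had 1.31 ± 0.39, but 0.77 without IR29 control replicate 1 and 1.84 without replicate 2.

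Several of the genes with the smallest p of the opposite form were dim. TPP3, a trehalose-6-phosphate phosphatase, was at 6.03, 5.42 and 6.19 in salt-stressed IR29, 4.30 and 4.30 in control IR29, 4.50, 4.25 and 4.66 in salt-stressed FL478, and 5.82, 5.11 and 4.55 in control FL478. Its interaction of 2.27 ± 0.52 ran between 0.95 and 4.68 under the other settings, since levels near 4 depend on the pseudocount. The same held for Pht1;11, a phosphate transporter, at -2.31 (-4.96 to -0.94), and for CBL2, a calcium sensor, at 2.32 (1.05 to 4.20). Another 3 Pht1;11 probe sets had -0.56, 0.62 and 0.08, of both signs. Cht2, a chitinase of pathogen defence, was somewhat less dim, with a highest group mean of 6.89. It was at 7.09, 7.17 and 6.40 in salt-stressed IR29, 5.21 and 6.11 in control IR29, 4.28, 4.42 and 5.13 in salt-stressed FL478, and 6.49, 5.76 and 5.54 in control FL478. It separated in opposite directions with 2.54 ± 0.64, which ran between 1.34 and 4.03 under the other settings, and its 2 dimmer probe sets had 0.58 and 1.19. IR29 exceeded FL478 by 2.28 under salt (limma adjusted p 0.0161), against -0.27 in control. In the list of 27 defence and proteinase inhibitor genes 22 were positive, and 2 reached p under 0.05, both upward.

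The smallest interaction p of all belonged to LOC4349605, a gene with no descriptive name. This gene and the others below without such a name were picked after their values had been seen. LOC4349605 was at 11.72, 11.33 and 10.89 in salt-stressed IR29, 9.02 and 9.10 in control IR29, 9.19, 9.60 and 9.04 in salt-stressed FL478, and 9.32, 9.85 and 9.78 in control FL478. The salt-stressed IR29 arrays stood above the other 8. It rose in IR29 by 2.26 ± 0.25 (limma adjusted p 0.0252), against -0.37 ± 0.22 in FL478, and its interaction was 2.63 ± 0.33 (95% interval 1.91 to 3.35; unadjusted p 3.82e-06, adjusted p 0.219). The interaction ran between 2.43 and 2.84 as each array was left out, and the line difference was 2.04 under salt and -0.59 in control.

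LOC4352346 was higher in IR29 in both conditions, by 3.58 under salt (limma adjusted p 7.92e-05) and 1.16 in control. It was at 11.38, 11.60 and 11.97 in salt-stressed IR29, 10.81 and 10.78 in control IR29, 8.23, 7.43 and 8.55 in salt-stressed FL478, and 8.92, 10.11 and 9.91 in control FL478, with salt above control in IR29 and below it in FL478. LOC4337329 was the control-led case, with a line difference of 0.33 under salt and -1.55 in control (adjusted p 0.684 and 0.0173). Its levels were 9.35, 9.16 and 9.50 in salt-stressed IR29, 8.77 and 8.30 in control IR29, 9.42, 8.82 and 8.77 in salt-stressed FL478, and 10.58, 9.82 and 9.86 in control FL478, so the lines overlapped under salt alone.

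**Figure D5:**
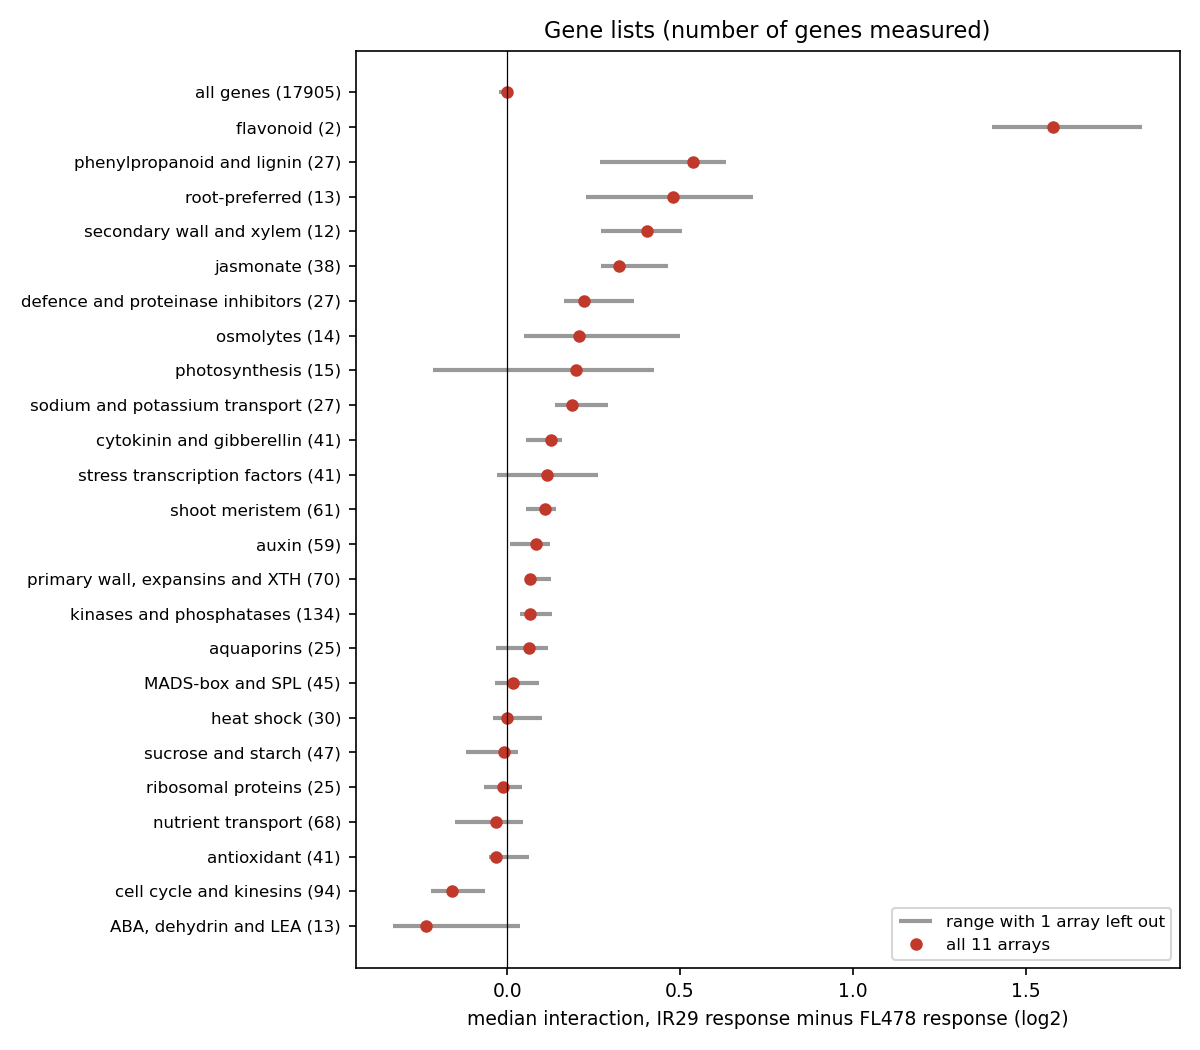
Median interaction (IR29 response minus FL478 response, log2) of 24 gene lists and of all genes, with the number of genes measured; red points are all 11 arrays and grey bars the range of the median as each array is left out. The medians run from -0.23 for ABA, dehydrin and LEA genes to 1.58 for the flavonoid list, against -0.002 for all genes. The flavonoid list holds only the 2 genes CHS1 and CHI. Several ranges cross 0.

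Across the lists, 0 genes passed the interaction test, against 0 of all genes tested. The medians of the jasmonate, phenylpropanoid, secondary wall, defence, sodium and potassium transport and osmolyte lists stayed above 0 with any 1 array left out. So did those of the flavonoid, root-preferred, cytokinin and gibberellin, shoot meristem, primary wall, kinase and phosphatase, and auxin lists. Some did so by little, with lowest medians of 0.049 for osmolytes and 0.008 for auxin. The median of the cell cycle list stayed below 0. The medians of the ABA, stress transcription factor, photosynthesis and aquaporin lists, among others, changed sign when some array was left out. Antioxidant enzymes, with 19 of 41 positive, and ribosomal proteins, with 10 of 25, had medians of -0.03 and -0.01, and 0 genes of either list reached p under 0.05. For the 13 root-preferred genes the median was 0.48, with 10 positive and 0 at p under 0.05. It was 0.23 without IR29 control replicate 1 and 0.27 without replicate 2. Their mean level ran between 7.08 and 7.70 in salt-stressed IR29, 7.50 in both control IR29 arrays, 6.85 and 7.26 in salt-stressed FL478, and 7.27 and 7.97 in control FL478.

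APX5, an ascorbate peroxidase that removes hydrogen peroxide, shows how 1 array enters the interaction. It was at 4.32, 5.18 and 5.47 in salt-stressed IR29, 9.27 and 5.28 in control IR29, 10.10, 10.12 and 9.61 in salt-stressed FL478, and 9.77, 10.40 and 9.98 in control FL478. IR29 control replicate 1 was near the FL478 level and replicate 2 at the level of salt-stressed IR29. The interaction was -2.18 ± 1.09 with all arrays, -0.18 without IR29 control replicate 1 and -4.17 without replicate 2 (limma adjusted p 0.0249). Without replicate 2 in all 21 probe sets were called, 0 of them positive, and 1 of the 21 had an unadjusted p under 0.01 with all arrays. No probe set was called when any other array was left out.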

How the data were processed

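Total RNA of crown and growing point tissue was measured on 11 arrays in 4 groups, taken from the sample titles. The deposited values are 1 linear signal intensity per probe set and array, which the authors made, per the submitters' processing notes, with GCOS 1.2. The expression algorithm is not given in the sources at hand. The array values were used as log2(value + 16) and quantile normalized, and 123 control probe sets were left out. For each of 57258 probe sets, limma 3.58.1 (R 4.3.3) estimated 4 group means with 7 residual degrees of freedom and an intensity trend. The script was tested on simulated data. P-values are two-sided, adjusted by Benjamini-Hochberg over all probe sets. Each gene is shown by its brightest probe set with exactly 1 gene in the array's annotation (22436 probe sets, 17905 genes). Symbols, available for 2432 of the genes, come from the RefSeq table of ASM3414082v1, whose build is not the array's. No sequence is printed.

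Named genes are the 12 in each direction with the smallest p among bright genes, the 5 of each form (opposite, IR29, FL478) with the smallest p, 2 of each of 24 lists, and HKT1;5, RAB16B, CHS1 and CESA4. Other list genes at p under 0.05 and unnamed genes were picked from their values. Members, lists and rule were chosen with earlier results of these data known, and the symbol patterns of the lists were refined after the reference table had been read. Alternatives were each array left out, pseudocounts of 1 and 64, no quantile normalization, no intensity trend, array weights, dim probe sets left out and a replicate block. Tables and plots used Python 3.11.15, pandas 2.3.3 and matplotlib 3.10.9.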

Additional observations from a re-analysis of the deposited data

How the results depend on the processing

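The call count of the interaction was 0 under all 7 settings other than leaving out an array. Leaving out each array gave 0 to 21 calls, 486 to 1183 probe sets at unadjusted p under 0.01, and among bright ones 88 to 308 positive and 39 to 263 negative. By form the left-out arrays gave 230 to 421 opposite, 146 to 716 IR29 and 17 to 140 FL478 responses, 102 to 610 control-led, 108 to 284 salt-led and 221 to 386 crossing probe sets, against 330, 239, 53, 167, 171 and 314 with all arrays. Bright salt-led probe sets numbered 62 to 200, bright control-led ones 17 to 249, and list genes at p under 0.05 38 to 96. With dim probe sets left out, 259 were at p under 0.01, of which 78 were opposite, 130 IR29, 23 FL478, 46 control-led, 111 salt-led and 98 crossing; fewer probe sets were tested there. FL478 responses numbered 100 with no intensity trend, 32 at a pseudocount of 1 and 95 at 64. At 64 opposite responses numbered 62 and bright negative ones 124. The cause was not tested. Of 76 named genes, RAB16B ran between -0.73 and 0.14 and reversed without FL478 salt replicate 3, and APX5 was called in 1 setting. The other 1350 pairs of a gene and a setting kept direction and side of the threshold. Deviations of same-numbered arrays correlated between -0.051 and 0.132, not all over 0.1, so the samples were not treated as pairs, and whether the numbers mark something shared was not settled. A fit with the number as a replicate block called 0 probe sets, with 709 at p under 0.01 and 70 bright control-led ones. Detection calls were not used, so dim levels are limited by the pseudocount.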

Other observations

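For some genes replicate 2 was the lowest array in each of the 4 groups, a pattern noticed after the values were seen. It held for 684 of 17905 genes (3.82%), and for 682 (3.81%) replicate 2 was the highest in each group. Among photosynthesis genes it was the lowest for 6 of 15 (40.0%), among sucrose and starch genes for 10 of 47 (21.3%), among phenylpropanoid and lignin genes for 5 of 27 (18.5%) and among jasmonate genes for 4 of 38 (10.5%). Among secondary wall and xylem genes it was the lowest for 0 of 12. JAZ7, JAZ8, HCT2 and CAD2 were among these genes. With the replicate number as a block their interactions were 1.40, 2.44, 0.86 and 0.63, against 1.47, 2.58, 0.97 and 0.73 without it. NAS1, which also showed the pattern, moved more, to 1.39 with the block from 1.91 without it. The genes were picked for a shift shared by replicate number, which the block takes out of their spread. Its p-values tend to be smaller by construction and are not given. The labels do not say what a replicate number stands for, and no cause was tested.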
